A study of Mus musculus with 8 samples.

Results

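Transcripts of the growth hormone and insulin-like growth factor (IGF) axis were examined in isolated white adipocytes. The 10 genes were the ligand Igf1, the receptors Igf1r, Igf2r and Ghr, and the binding proteins Igfbp2, Igfbp3, Igfbp4, Igfbp5, Igfbp6 and Igfbp7. They were chosen by symbol from the 30387 genes of the table, with earlier results of these data known. All 10 reached the mean of 5 normalized counts required for testing. The cells were isolated from epididymal fat. The Ad-Yap/Taz-KO mice were Yap fl/fl and Taz fl/fl and carried Adipoq-Cre, in which the adiponectin promoter drives deletion in adipocytes, and their wild-type littermates (WT) served as controls. Mice of each genotype received a standard diet (SD) or a high-fat diet (HFD) for 4 weeks, starting at week 5 of age by the description of the data set and at 6 weeks by the study's methods, and each of the 4 groups had 2 libraries, from 2 mice per group by the study's description of the experiment. The labels do not tie a library to a mouse.

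Growth hormone acts on adipocytes through its receptor GHR, which signals by JAK2 and STAT5 and promotes lipolysis, and it drives transcription of Igf1 in liver and other tissues. IGF-I signals through the tyrosine kinase IGF1R, whereas IGF2R, the cation-independent mannose 6-phosphate receptor, carries lysosomal enzymes and takes up IGF-II for degradation. The IGFBPs bind IGFs outside the cell and set how much ligand reaches the receptors, and IGFBP7 is a relative with low affinity for IGFs. YAP and TAZ are transcriptional coactivators of the Hippo pathway that bind DNA through TEAD factors.

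On HFD, Ghr was far lower in Ad-Yap/Taz-KO adipocytes than in WT, Igfbp4 was also lower, and Igfbp6, Igfbp7, Igf1r and Igf2r were higher. Igf1 was not called in any of the comparisons with the values as deposited. On SD Igfbp5 was lower in Ad-Yap/Taz-KO and was the only one of the 10 genes called. In WT the diet was accompanied by higher Igfbp4 and Igfbp5 and by lower Igf1r, Igfbp6 and Igfbp7. Of these diet calls, only that of Igfbp7 held when single WT libraries were left out.

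The values, here called normalized counts, are reads per gene after division by each library's size factor and rounding. The libraries held 14.0 to 22.3 M reads on genes, so that 1 read was worth between 0.795 and 1.135 normalized counts. Of the targeted genes, Taz (Wwtr1) read 5594 and 4743 in WT SD, 2441 and 1957 in Ad-Yap/Taz-KO SD, 7121 and 6807 in WT HFD and 2060 and 2707 in Ad-Yap/Taz-KO HFD. It was lower in Ad-Yap/Taz-KO by limma on SD (log2 fold change -1.24 ± 0.18 SE, adjusted p = 0.00097) and on HFD (-1.56 ± 0.18, adjusted p = 3.1e-05). Yap1 read 2776 and 2717, 1669 and 1699, 2468 and 2333, and 1549 and 2068 in the same order of groups, and it was lower on SD (-0.71 ± 0.16, adjusted p = 0.024). Yap1 lost this call with no filter on low values (adjusted p = 0.084) and in a fit of only the SD groups (0.053). On HFD its difference of -0.42 ± 0.16 did not pass (adjusted p = 0.059), but was called when Ad-Yap/Taz-KO HFD replicate 2 was left out (-0.63, adjusted p = 0.012). The call on SD was lost without any 1 of the SD or WT HFD libraries (adjusted p up to 0.17) and, when the latter were averaged to 1 sample, at an adjusted p of 0.075. The WT HFD libraries stood close together: among genes with 1000 to 5000 reads, their squared difference was 6.19 times what Poisson noise gives, against 35.3 in WT SD, 70.8 in Ad-Yap/Taz-KO SD and 92.3 in Ad-Yap/Taz-KO HFD. They still differed beyond sampling noise and entered the test as 2 libraries, and calls of the 10 genes that rest on them are also given with their average as 1 sample, as are losses under that setting among the other genes.

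A gene was called when its limma p, adjusted by Benjamini-Hochberg over the 18800 genes tested, did not exceed 0.05 and its log2 fold change reached 0.59, up or down. Between Ad-Yap/Taz-KO and WT on HFD, 6 of the 10 genes were called (4 higher, 2 lower), where 32.2% of all genes tested were called (17.1% higher, 15.1% lower). On SD 1 of 10 was called, and it was lower, against 4.71% of all genes (3.21% higher, 1.5% lower). For the diets in WT 5 of 10 were called (2 higher, 3 lower), against 18% of all genes (8.74% higher, 9.22% lower). For the diets in Ad-Yap/Taz-KO 2 of 10 were called (1 higher, 1 lower), against 1.07% (0.383% higher, 0.691% lower). The interaction of genotype and diet, which tests whether the genotype difference changed with diet, was called for 4 of 10 genes (2 higher, 2 lower), against 17.4% (8.69% higher, 8.73% lower). When the WT HFD libraries counted as 1 sample, the counts were 3 of 10 for the genotypes on HFD, 1 for the diets in WT, 0 for the diets in Ad-Yap/Taz-KO and 0 for the interaction. Over all 18800 genes the calls under that setting were 3445, 539, 28 and 517 in the same order, against 6053, 3377, 202 and 3274 before, so that they dropped for all genes and not for the 10 alone. The diet calls of Igf1r, Igfbp4, Igfbp5 and Igfbp6 in WT were each lost without any 1 of the 4 WT libraries (adjusted p 0.052 to 0.27). The balance of directions over all genes depended on scaling: the genotype comparison on HFD gave 3213 higher and 2840 lower calls as deposited and 4617 and 1367 with libraries scaled to the same total. The diet comparison in WT moved likewise from 1643 higher and 1734 lower to 470 and 3567, and the interaction from 1633 and 1641 to 2610 and 619.

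**Figure D1:**
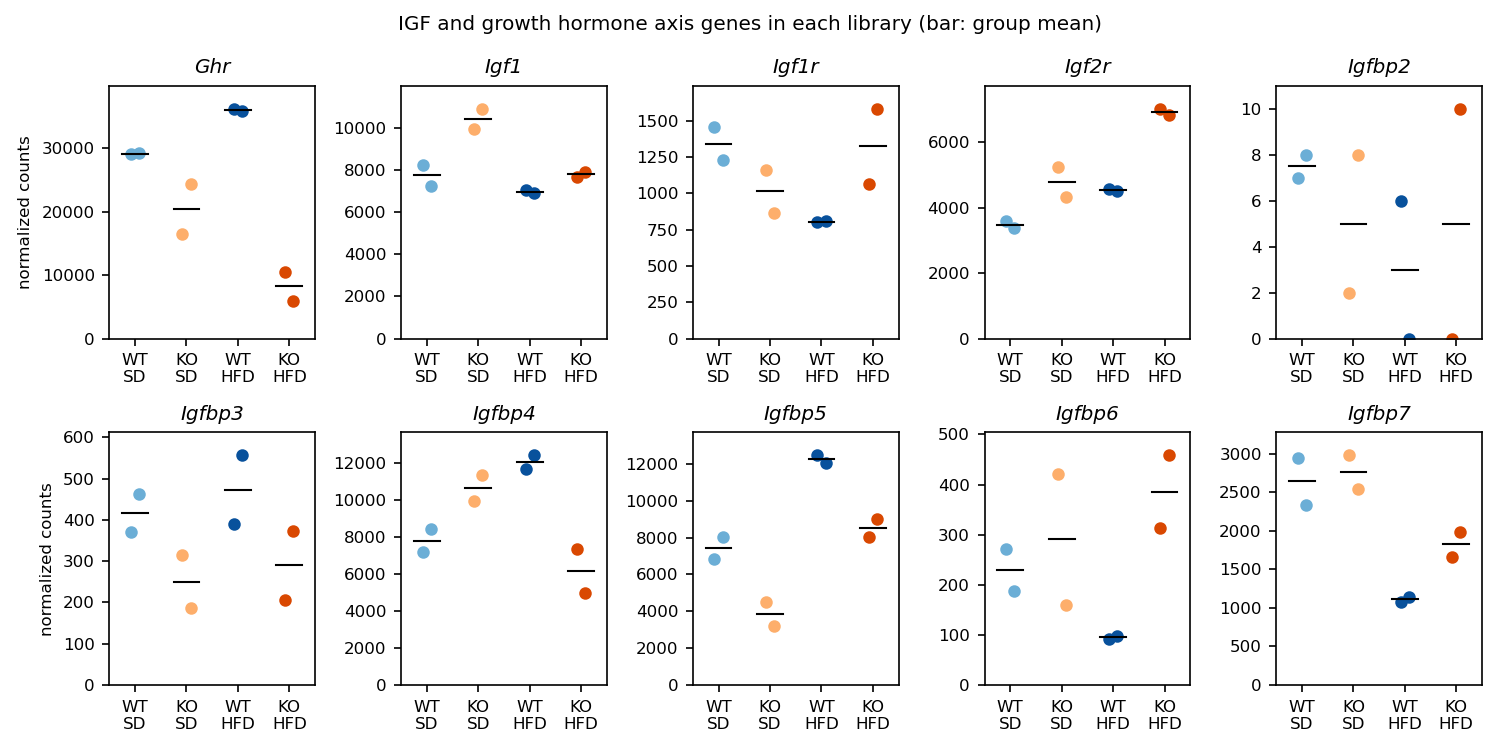
Normalized counts (y axis, linear from 0) of the 10 genes in each group (x axis, KO for Ad-Yap/Taz-KO), with 1 point per library and a bar at the mean of both. Ghr read 36194 and 35815 in WT HFD and 10551 and 5946 in Ad-Yap/Taz-KO HFD, whereas Igf1 lay between 6878 and 10885 in all 8 libraries.

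The ligand Igf1 (ENSMUSG00000020053, chromosome 10, 87858265 to 87937042, mm10) read 8229 and 7236 in WT SD, 9958 and 10885 in Ad-Yap/Taz-KO SD, 7056 and 6878 in WT HFD and 7682 and 7886 in Ad-Yap/Taz-KO HFD. Ad-Yap/Taz-KO SD was the highest group and overlapped none of the others, and WT HFD was the lowest. The difference between genotypes was 0.43 ± 0.15 on SD (95% interval 0.12 to 0.75, adjusted p = 0.13) and 0.16 ± 0.15 on HFD (-0.16 to 0.48, adjusted p = 0.42), so that neither passed. Quantile normalization alone among the alternatives gave a called rise on HFD (0.61, adjusted p = 0.0089). Macrophages are a known source of IGF-I. The summed counts of 14 macrophage markers lay at 5747 to 5810 in WT SD, 18839 to 33595 in Ad-Yap/Taz-KO SD, 2728 to 2794 in WT HFD and 34962 to 37901 in Ad-Yap/Taz-KO HFD, and 13 of the 14 were called higher in Ad-Yap/Taz-KO on HFD and 12 of 14 on SD. Among them Fcgr1 was listed at 0 in 1 WT HFD library. Their part in the Igf1 level was not tested.

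Ghr, the growth hormone receptor (ENSMUSG00000055737, chromosome 15, 3317760 to 3583492, minus strand), read 29062 and 29244 in WT SD, 16400 and 24347 in Ad-Yap/Taz-KO SD, 36194 and 35815 in WT HFD and 10551 and 5946 in Ad-Yap/Taz-KO HFD. The 4 groups did not overlap, and Ad-Yap/Taz-KO libraries were below WT libraries on both diets. On HFD Ghr was lower in Ad-Yap/Taz-KO by 2.18 ± 0.25 on the log2 scale (log2 fold change -2.18, 95% interval -2.73 to -1.64, adjusted p = 3.9e-05). It was called under all 12 alternative settings, with values between -2.22 and -1.57, and without any single library, between -2.60 and -1.77. On SD the difference of -0.54 ± 0.25 did not pass (adjusted p = 0.30). The interaction was -1.64 ± 0.36 (adjusted p = 0.012), and it was lost with WT HFD as 1 sample (adjusted p = 0.068) and without either WT HFD library (0.057 and 0.064) or WT SD replicate 1 (0.066).

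The diet difference of Ghr was 0.30 ± 0.25 in WT (adjusted p = 0.42) and -1.33 ± 0.25 in Ad-Yap/Taz-KO (adjusted p = 0.028). The latter was lost in 5 of 12 alternatives, without Ad-Yap/Taz-KO HFD replicate 2 (-0.92, adjusted p = 0.13), without Ad-Yap/Taz-KO SD replicate 2 (-1.05, adjusted p = 0.28) and without any 1 of the 4 WT libraries (adjusted p 0.079 to 0.11). Markers of adipocytes moved in the same direction: the sum over 11 of them lay at 302872 to 309847 in WT SD, 258469 to 362714 in Ad-Yap/Taz-KO SD, 533095 to 542236 in WT HFD and 150548 to 287020 in Ad-Yap/Taz-KO HFD. In Ad-Yap/Taz-KO on HFD 10 of the 11 were called lower, with a median log2 fold change of -1.505. In bulk RNA, fewer cells of a type and less RNA per cell cannot be told apart. Per 1000 counts of these markers, Ghr stood at 96.0 and 94.4 in WT SD, 63.5 and 67.1 in Ad-Yap/Taz-KO SD, 66.7 and 67.2 in WT HFD and 36.8 and 39.5 in Ad-Yap/Taz-KO HFD. By this ratio, Ad-Yap/Taz-KO was below WT in every library on each diet, and HFD was below SD in every library of each genotype. In WT, Ghr itself read higher on HFD (not called), and the ratio was lower since the marker sum was higher by more. The ratio also depends on the markers summed. Lep, at 72885 and 73642 in WT HFD and 7257 and 1545 in Ad-Yap/Taz-KO HFD, differed by more than Ghr between the genotypes. The median over the markers differed by less.

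Igf1r, the signalling receptor for IGF-I (ENSMUSG00000005533, chromosome 7, 67952827 to 68233668), read 1457 and 1227 in WT SD, 1162 and 863 in Ad-Yap/Taz-KO SD, 800 and 807 in WT HFD and 1065 and 1580 in Ad-Yap/Taz-KO HFD. The lowest group was WT HFD, and neighbours in the order of the other 3 groups overlapped. Igf1r was lower on HFD than on SD in WT (-0.73 ± 0.21, adjusted p = 0.029) and higher in Ad-Yap/Taz-KO than in WT on HFD (0.69 ± 0.21, adjusted p = 0.023). On SD the genotype difference of -0.42 ± 0.21 did not pass (adjusted p = 0.34). The interaction was 1.11 ± 0.30 (adjusted p = 0.026). Omitting Ad-Yap/Taz-KO HFD replicate 2 gave a difference of 0.41 on HFD (adjusted p = 0.20), and the adjusted p was 0.12 with WT HFD as 1 sample or without either WT HFD library and 0.072 with no filter on low values. The interaction was lost without any 1 of the 4 WT libraries (adjusted p 0.056 to 0.12) and without replicate 2 of either Ad-Yap/Taz-KO group (0.085 and 0.089). The sum over 9 endothelial markers moved with Igf1r, with 39500 and 32378 in WT SD, 30604 and 17090 in Ad-Yap/Taz-KO SD, 20125 and 20438 in WT HFD and 26654 and 41477 in Ad-Yap/Taz-KO HFD. It was highest in the library with the highest Igf1r, and its part in these results was not tested.

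Igf2r, the receptor that clears IGF-II (ENSMUSG00000023830, chromosome 17, 12682406 to 12769664, minus strand), read 3584 and 3382 in WT SD, 5237 and 4340 in Ad-Yap/Taz-KO SD, 4577 and 4512 in WT HFD and 7026 and 6849 in Ad-Yap/Taz-KO HFD. Ad-Yap/Taz-KO libraries were above WT libraries on each diet. On HFD Igf2r was higher in Ad-Yap/Taz-KO by 0.61 ± 0.15 (adjusted p = 0.0065), just past the fold limit, and upper-quartile scaling gave 0.58. On SD the difference was 0.45 ± 0.15 (adjusted p = 0.12), and the interaction of 0.16 had an interval from -0.29 to 0.61. The call on HFD was lost with WT HFD as 1 sample (adjusted p = 0.07) and without either WT HFD library (0.059 and 0.071). Macrophage markers moved between the genotypes as given above for Igf1, and their part in this result was not tested.

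**Figure D2:**
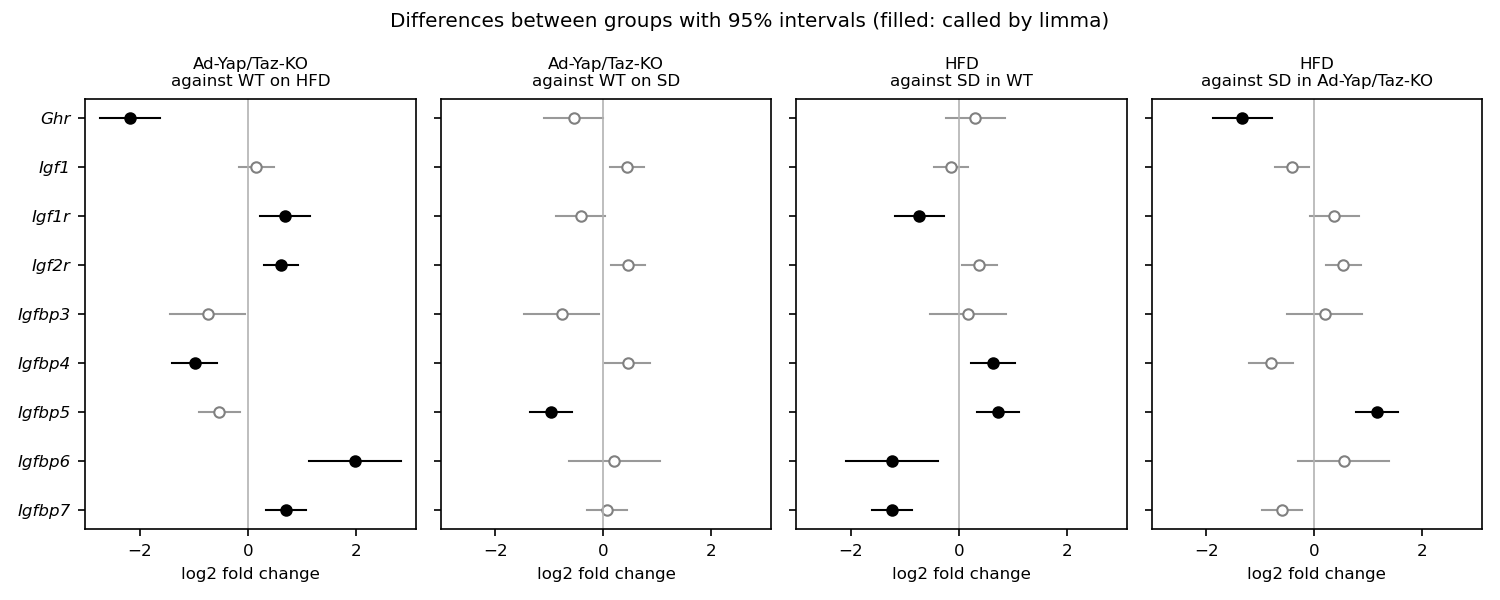
Log2 fold changes (x axis) with 95% intervals of 9 of the genes in 4 comparisons, with filled points for calls by limma. Igfbp2 is left out for its few reads. The largest difference is that of Ghr between the genotypes on HFD (-2.18), and Igfbp5 has the only filled point between the genotypes on SD (-0.97).

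Igfbp4, an IGFBP that inhibits IGF action and is cleaved by the protease PAPP-A (ENSMUSG00000017493, chromosome 11, 99041244 to 99054392), read 7192 and 8427 in WT SD, 9937 and 11373 in Ad-Yap/Taz-KO SD, 11686 and 12427 in WT HFD and 7378 and 5002 in Ad-Yap/Taz-KO HFD. The genotypes were in opposite order on the 2 diets, with Ad-Yap/Taz-KO above WT on SD and below it on HFD. On HFD the difference was -0.99 ± 0.19 (adjusted p = 0.0017), and on SD it was 0.45 ± 0.19 (adjusted p = 0.24). The interaction was -1.44 ± 0.27 (adjusted p = 0.0067), and its adjusted p was 0.051 with WT HFD as 1 sample and 0.053 without WT SD replicate 1. In WT, Igfbp4 rose on HFD (0.63 ± 0.19, adjusted p = 0.035), whereas in Ad-Yap/Taz-KO the difference was -0.81 ± 0.19 (adjusted p = 0.064). The latter was called with a pseudocount of 8 (adjusted p = 0.048), scaled to the same total (0.033), with upper-quartile scaling (0.049) and without Ad-Yap/Taz-KO HFD replicate 1 (-1.09, 0.0047) or SD replicate 1 (-0.90, 0.044). The call in WT was lost when libraries were scaled to the same total (0.22, adjusted p = 0.35), with quantile normalization (0.31, 0.25), with no filter on low values (0.11), with the replicate block (0.062) and with WT HFD as 1 sample (0.20). Quantile normalization brought the genotype difference on HFD to -0.51, under the fold limit. The adipocyte marker sums given above for Ghr were likewise highest in WT HFD and lowest in an Ad-Yap/Taz-KO HFD library, with 9 of 11 markers called lower in the interaction, and their part was not tested.

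Igfbp5, a binding protein that attaches to extracellular matrix (ENSMUSG00000026185, chromosome 1, 72857932 to 72874884, minus strand), read 6832 and 8024 in WT SD, 4501 and 3186 in Ad-Yap/Taz-KO SD, 12453 and 12063 in WT HFD and 8043 and 9008 in Ad-Yap/Taz-KO HFD. The 4 groups did not overlap, although the higher WT SD library (8024) came close to the lower Ad-Yap/Taz-KO HFD library (8043). Igfbp5 was lower in Ad-Yap/Taz-KO on SD (-0.97 ± 0.18, adjusted p = 0.0066). Without WT SD replicate 2 this call was lost (-0.85, adjusted p = 0.12), as it was with no filter on low values (0.055) and in a fit of only the SD groups (0.056). On SD the sums of endothelial markers (32378 to 39500 in WT, against 17090 to 30604 in Ad-Yap/Taz-KO) and of mural cell markers (15416 to 17135, against 8878 to 13195) were also lower without overlap, although 0 of 9 and 0 of 7 were called (median -0.63 and -0.51), and their part in the result was not tested. On HFD the endothelial sum was 20125 to 20438 in WT, where Igfbp5 was highest, and 26654 to 41477 in Ad-Yap/Taz-KO. The mural sum was 12956 to 13315 in WT HFD and 9746 to 13613 in Ad-Yap/Taz-KO HFD. With HFD in WT, 5 of 9 endothelial markers were called lower, whereas Igfbp5 was called higher. On HFD the genotype difference of Igfbp5 was -0.53 ± 0.18 (adjusted p = 0.038), under the fold limit, and quantile normalization gave 0.018. Igfbp5 rose with HFD in WT (0.73 ± 0.18, adjusted p = 0.015) and likewise in Ad-Yap/Taz-KO (1.17 ± 0.18, adjusted p = 0.012), and the interaction of 0.44 ± 0.25 did not pass (adjusted p = 0.24). The interaction was called with quantile normalization (0.91, adjusted p = 0.045) and without Ad-Yap/Taz-KO SD replicate 1 (0.69, adjusted p = 0.0497). The rise in WT was lost when scaled to the same total (0.31, adjusted p = 0.28) and with quantile normalization (0.41, adjusted p = 0.18). With WT HFD as 1 sample, these diet differences had an adjusted p of 0.13 and 0.066. The one in Ad-Yap/Taz-KO was also lost without either WT HFD library (0.067 each) and without replicate 2 of Ad-Yap/Taz-KO HFD (0.054) or SD (0.099).

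Because YAP and TAZ act with TEAD, the promoter sequences of the 10 genes were searched for TEAD, AP-1, STAT5 and FOXO motifs on both strands of the 250 bases before each annotated start (RefSeq, GRCm38.p6). All 10 genes had an entry, with 12 windows in all. The TEAD motif GGAATG was in 12.6% of 32851 promoters and, among the 12 windows, in that of Igfbp5 alone. The AP-1 motif TGANTCA was in 6.75% of promoters and in a window of Igf1, of Ghr and of Igfbp2, where the matches of Igf1 and Igfbp2 lay in exon bases. STAT5 (TTCNNNGAA, 7.02% of promoters) and FOXO (GTAAACA, 3.17%) had no match in the 12 windows. The promoters of Igfbp5 (chr1:72874885-72875115, minus strand), of the second start of Ghr (chr15:3581843-3582092, minus strand) and of Igfbp4 (chr11:99040994-99041243, plus strand) are shown, since these 3 genes held the only genotype call on SD and the genotype calls with the lowest values on HFD. Bases in exons were left out, capitals mark motif matches (CATTCC is GGAATG on the other strand), no matches overlapped, and Igfbp4 held none. The window of the first start of Ghr held no match of these motifs and is not shown. A match is a description of letters and not evidence of binding.
Igfbp5: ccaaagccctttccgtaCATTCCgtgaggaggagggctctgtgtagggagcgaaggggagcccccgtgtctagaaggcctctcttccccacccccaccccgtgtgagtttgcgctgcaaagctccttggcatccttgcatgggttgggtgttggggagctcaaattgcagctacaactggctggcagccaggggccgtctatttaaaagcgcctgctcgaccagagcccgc
Ghr: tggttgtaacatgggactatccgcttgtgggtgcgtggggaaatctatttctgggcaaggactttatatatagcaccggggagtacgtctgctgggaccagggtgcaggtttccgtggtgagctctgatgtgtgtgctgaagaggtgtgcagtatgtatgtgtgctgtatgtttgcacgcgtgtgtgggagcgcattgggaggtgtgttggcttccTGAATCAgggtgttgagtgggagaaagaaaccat
Igfbp4: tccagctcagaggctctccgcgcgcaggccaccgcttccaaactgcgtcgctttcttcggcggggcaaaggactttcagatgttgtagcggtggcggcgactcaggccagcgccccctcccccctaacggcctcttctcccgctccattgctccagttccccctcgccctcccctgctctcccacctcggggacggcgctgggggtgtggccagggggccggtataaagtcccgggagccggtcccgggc

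Igfbp6, a binding protein that prefers IGF-II (ENSMUSG00000023046, chromosome 15, 102144362 to 102149511), read 271 and 187 in WT SD, 422 and 159 in Ad-Yap/Taz-KO SD, 92 and 98 in WT HFD and 314 and 458 in Ad-Yap/Taz-KO HFD. WT HFD was below every other library, and the libraries of Ad-Yap/Taz-KO SD lay far apart. On HFD it was higher in Ad-Yap/Taz-KO by 1.99 ± 0.39 (adjusted p = 0.0019), a call kept under all 12 alternatives (1.82 to 2.37) and without any single library (1.71 to 2.26). On SD the difference was 0.20 ± 0.39 (adjusted p = 0.85), and the interaction was 1.78 ± 0.55 (adjusted p = 0.043). In WT it was lower on HFD (-1.24 ± 0.39, adjusted p = 0.043). The interaction was lost without any library but Ad-Yap/Taz-KO HFD replicate 1 and SD replicate 1 (adjusted p 0.072 to 0.17). It was also lost in 5 of 11 alternatives: a pseudocount of 0.1 (0.059), no filter (0.14), quantile normalization (0.072), the replicate block (0.052) and WT HFD as 1 sample (0.13). Fibroblasts and progenitors of fat are a known source of Igfbp6. The sum over 10 of their markers lay at 35058 to 41500 in WT SD, 37525 to 61164 in Ad-Yap/Taz-KO SD, 25173 to 25764 in WT HFD and 86190 to 96580 in Ad-Yap/Taz-KO HFD, with 7 of 10 called higher in Ad-Yap/Taz-KO on HFD and 5 of 10 called lower on HFD in WT. Their part in the result was not tested.

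**Figure D3:**
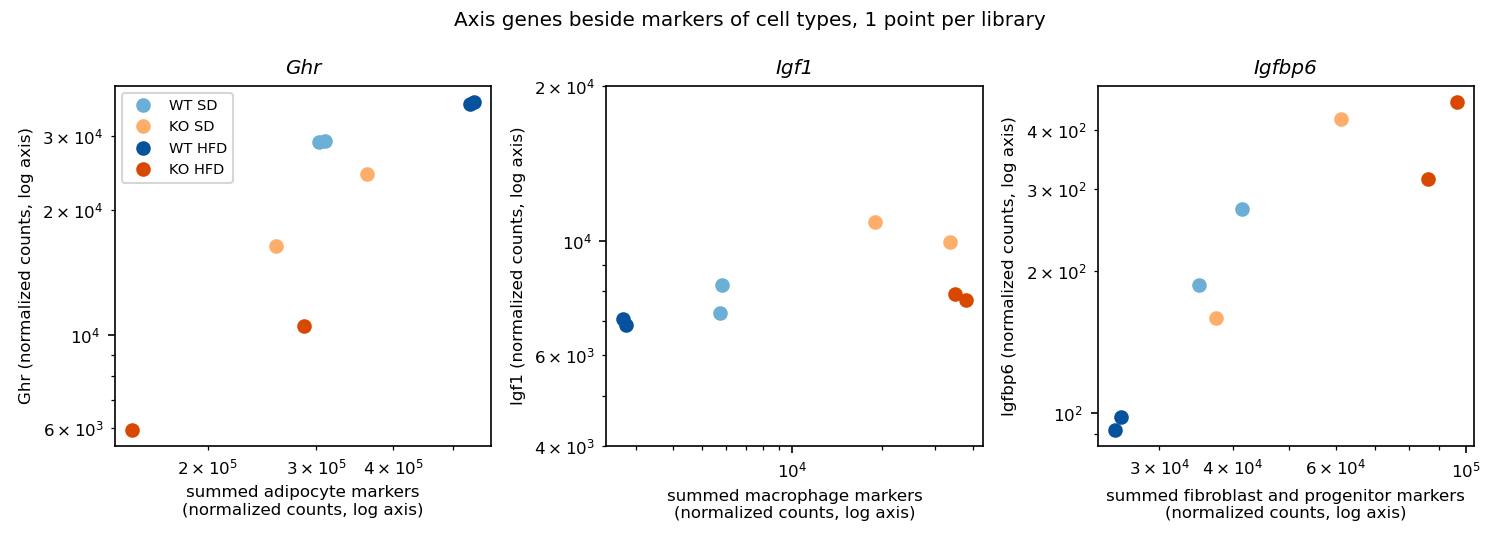
Ghr, Igf1 and Igfbp6 (y axes, normalized counts, log scale) against the summed normalized counts of adipocyte, macrophage, and fibroblast and progenitor markers (x axes, log scale), with 1 point per library and KO for Ad-Yap/Taz-KO. Ghr and the adipocyte markers are lowest in the same library, with 5946 and 150548 counts, whereas Igf1 stays between 6878 and 10885 over a macrophage sum from 2728 to 37901.

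Igfbp7, the low-affinity relative (ENSMUSG00000036256, chromosome 5, 77349240 to 77408041, minus strand), read 2948 and 2333 in WT SD, 2976 and 2543 in Ad-Yap/Taz-KO SD, 1073 and 1145 in WT HFD and 1656 and 1990 in Ad-Yap/Taz-KO HFD. Both SD groups overlapped and were above both HFD groups. It was lower on HFD in WT (-1.24 ± 0.17, adjusted p = 0.00076), the only call of the diet comparison in WT that was kept when WT HFD counted as 1 sample. On HFD it was higher in Ad-Yap/Taz-KO than in WT (0.71 ± 0.17, adjusted p = 0.0063; adjusted p = 0.061 with WT HFD as 1 sample and 0.068 without WT HFD replicate 1). Without Ad-Yap/Taz-KO HFD replicate 2 this difference was 0.58, under the fold limit. The diet difference in Ad-Yap/Taz-KO was -0.60 ± 0.17 (adjusted p = 0.11). The interaction of 0.64 ± 0.24 did not pass (adjusted p = 0.081), and it was called when scaled to the same total (1.07, adjusted p = 0.022), with quantile normalization (0.87, 0.045) and on omission of Ad-Yap/Taz-KO HFD replicate 1 (0.77, 0.037). Endothelium is rich in Igfbp7, and the sum over 9 endothelial markers lay at 32378 to 39500 in WT SD, 17090 to 30604 in Ad-Yap/Taz-KO SD, 20125 to 20438 in WT HFD and 26654 to 41477 in Ad-Yap/Taz-KO HFD. In WT 5 of the 9 were called lower on HFD, and 4 of 9 were called higher in Ad-Yap/Taz-KO on HFD. Their part in the result was not tested. Of the exon bases of Igfbp7, 7.03% overlap Polr2b on the opposite strand, and whether counting used strand is not given in the sources used here. The study left out reads that overlapped several genes, so without strand the reads in these bases would be missing from the count.

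Igfbp3, the main circulating IGF carrier (ENSMUSG00000020427, chromosome 11, 7206086 to 7213923, minus strand), read 371 and 462 in WT SD, 315 and 186 in Ad-Yap/Taz-KO SD, 390 and 556 in WT HFD and 205 and 374 in Ad-Yap/Taz-KO HFD. Both Ad-Yap/Taz-KO groups were below the WT group of the same diet. The differences of -0.77 ± 0.32 on SD (adjusted p = 0.24) and -0.75 ± 0.32 on HFD (adjusted p = 0.091) did not pass, and the interval of the interaction ran from -0.96 to 1.01. Without Ad-Yap/Taz-KO HFD replicate 2 the difference on HFD was called (-1.18, adjusted p = 0.029). Igfbp2 (ENSMUSG00000039323, chromosome 1, 72824503 to 72852474) was close to the limit of detection, with 7 and 8 in WT SD, 2 and 8 in Ad-Yap/Taz-KO SD, 6 and 0 in WT HFD and 0 and 10 in Ad-Yap/Taz-KO HFD. A 0 allows up to 3 counts, between 2.39 and 3.40 normalized counts depending on the library. Its interval between the genotypes on HFD, from -2.83 to 3.48, does not limit the direction.

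Divided by exon length, Ghr had the highest level of the 10 genes in WT SD (mean 3220 normalized counts per kb, 3210 and 3230 in its libraries) and in WT HFD (3956 and 3998). In Ad-Yap/Taz-KO SD the highest was Igfbp4 (2250 to 2575), and both Igfbp7 (2103 to 2462) and Ghr (1812 to 2689) overlapped it. In Ad-Yap/Taz-KO HFD Ghr (657 to 1165) came behind Igfbp7 (1370 to 1646), Igfbp5 (1339 to 1500) and Igfbp4 (1133 to 1671), and only Igfbp7 and Igfbp5 lay above it without overlap. Igf1 lay between 694 and 1099 per kb in all libraries and exceeded the level of Igf1r, which lay between 47.6 and 94.1 per kb.

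The summed level of the 6 IGFBPs per kb was 4728 and 4815 in the Ad-Yap/Taz-KO HFD libraries, below the 6 others (5416 to 6035). This order rests on the deposited scaling. Over all genes, normalized counts summed to 17194214 and 14890264 in Ad-Yap/Taz-KO HFD and to 20994246 and 20815181 in WT HFD. Relative to its total, Ad-Yap/Taz-KO HFD replicate 2 lay above both WT HFD libraries. The make-up of the IGFBP sum differed too. Igfbp7 gave 43.8% and 35.1% of the sum in WT SD, 41.4% and 38.8% in Ad-Yap/Taz-KO SD, 15.3% and 15.7% in WT HFD and 29.0% and 34.2% in Ad-Yap/Taz-KO HFD. Igfbp5 gave 20.4% and 24.3%, 12.6% and 9.79%, 35.6% and 33.3%, and 28.3% and 31.1% in the same order of groups. Thus Igfbp7 and Igfbp4 shared most of the sum on SD, and Igfbp4 and Igfbp5 shared most of it in WT HFD, where Igfbp4 stood at 45.5% and 46.6%. These shares are a description with no test.

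**Figure D4:**
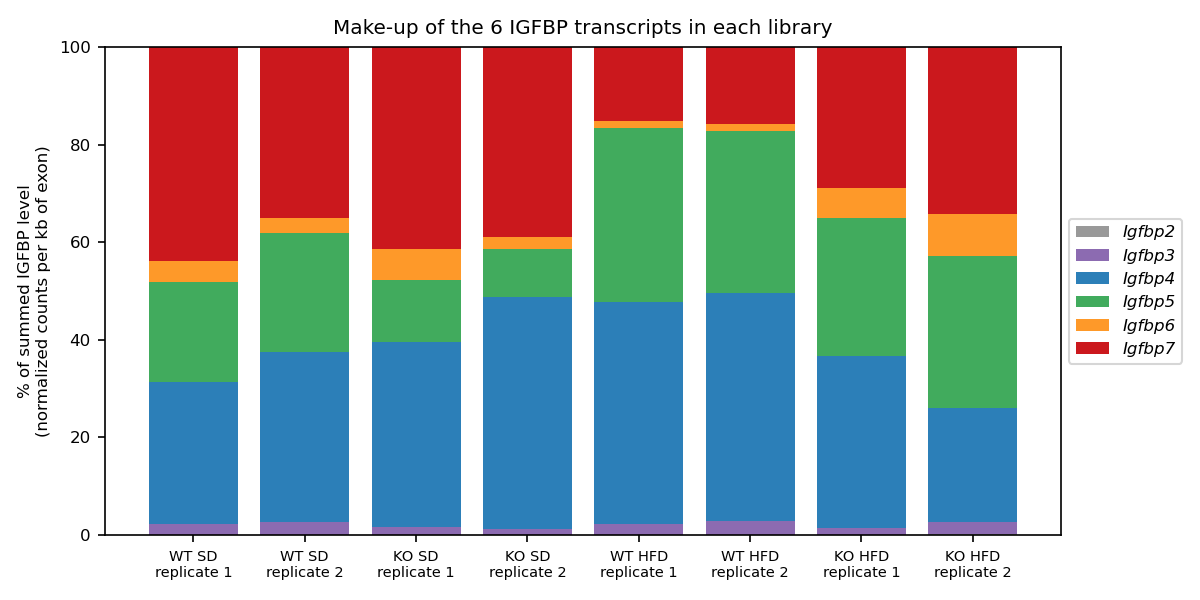
Share of each IGFBP (y axis, percent of the summed normalized counts per kb of exon) in each of the 8 libraries (x axis, KO for Ad-Yap/Taz-KO). The Igfbp7 share is smallest in the WT HFD libraries (15.3% and 15.7%) and the Igfbp5 share is smallest in the Ad-Yap/Taz-KO SD libraries (12.6% and 9.79%).

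Other genes of the axis were read from a list of 32 genes, of which 29 were tested. Among 7 tested IGF ligands, carriers and proteases, 2 were called higher and 3 lower in Ad-Yap/Taz-KO on HFD, where 32.2% of all genes were called (17.1% higher, 15.1% lower), with a median log2 fold change of -0.03 beside 0.09 over all genes. Pappa, the protease that cleaves IGFBP4, read 18 and 22 in WT HFD and 92 and 265 in Ad-Yap/Taz-KO HFD (2.91 ± 0.45, adjusted p = 0.00037), and the ligand Igf2 was also higher (1.91 ± 0.50, adjusted p = 0.011). A limma fit of only the HFD groups did not call Igf2 (adjusted p = 0.052). Igf2 was lost with WT HFD as 1 sample (adjusted p = 0.056) and without replicate 2 of Ad-Yap/Taz-KO HFD (1.17, 0.16) or of WT HFD (1.51, 0.10). Igfals, the acid-labile subunit that holds IGF and IGFBP3 in the circulating complex and whose liver transcription growth hormone drives, read 776 and 914 in WT HFD and 184 and 100 in Ad-Yap/Taz-KO HFD (-2.62 ± 0.28, adjusted p = 2.1e-05). The PAPP-A inhibitor Stc2 and the secreted protease Htra1 were lower as well. On SD Stc2 read 451 and 429 in WT, against 163 and 212 in Ad-Yap/Taz-KO (-1.24 ± 0.23, adjusted p = 0.0065), Htra1 was lower too (-0.79 ± 0.17, adjusted p = 0.019), and no other gene of this group was called. Both were lost without either WT SD library (adjusted p 0.066 to 0.19), and Htra1 also with WT HFD as 1 sample (0.0505), without either WT HFD library (0.051) or Ad-Yap/Taz-KO SD replicate 1 (0.11). The SD call of Htra1 was also lost with no filter on low values (0.085) and in a fit of only the SD groups (0.070). With HFD in WT, Pappa fell from 188 and 226 to 18 and 22 (-3.31 ± 0.45, adjusted p = 0.00074) and Igf2 was lower, whereas Igfals rose from 354 and 296 to 776 and 914 (1.38 ± 0.28, adjusted p = 0.0066) and Htra1 was higher. Scaled to the same total, the Htra1 rise fell under the fold limit (0.53). With WT HFD as 1 sample the calls of Igfals (0.073), Igf2 (0.063) and Htra1 (0.058) were lost, and that of Pappa was kept. Without single WT libraries other than WT HFD replicate 1, the Igfals rise (0.054 to 0.085) and the Igf2 fall (0.058 to 0.084) were lost as well, and the Htra1 rise was lost without WT SD replicate 1 (0.064) or WT HFD replicate 2 (0.080). Between the diets in Ad-Yap/Taz-KO limma called 0 of the 7 and 1.07% of all genes, while 2905 genes had an unadjusted p under 0.05. Fibroblast and progenitor markers were higher and adipocyte markers lower in Ad-Yap/Taz-KO on HFD, as given above for Igfbp6 and Ghr, in the directions of Pappa and Igf2 and of Igfals, Stc2 and Htra1, and their part was not tested. With HFD in WT, 5 of 10 fibroblast and progenitor markers were called lower (median -0.78), in the direction of Pappa and Igf2. Adipocyte markers had a median of 0.66, with 2 of 11 called higher, in the direction of Igfals and Htra1. The part of either was not tested.

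Of 9 tested insulin receptors and receptor substrates, 4 were called lower and 0 higher in Ad-Yap/Taz-KO on HFD, beside 15.1% lower and 17.1% higher of all genes and with a median of -0.60 beside 0.09. These were the insulin receptor Insr, the docking proteins Irs1 and Irs3, and Grb14, an adaptor that inhibits the insulin receptor. Grb14 read 538 and 572 in WT HFD and 213 and 47 in Ad-Yap/Taz-KO HFD (-2.46 ± 0.50, adjusted p = 0.0024), with its libraries far apart. Grb14 and Irs3 were called under all 12 alternatives and without any single library. Insr (-0.84 ± 0.15) fell under the fold limit when scaled to the same total (-0.46) and with quantile normalization (-0.50). Irs1 was lost in 4 of 12 alternatives, among them the same total (-0.22, adjusted p = 0.30) and WT HFD as 1 sample (0.11), and without Ad-Yap/Taz-KO HFD replicate 2 (-0.44, 0.13) or either WT HFD library (0.15 and 0.072). On SD 0 of the 9 were called. With HFD in WT, Irs3 rose from 327 and 338 to 774 and 707 (1.15 ± 0.31, adjusted p = 0.024) and Irs2 was lower. Both were lost with WT HFD as 1 sample (Irs3 0.15, Irs2 0.18) and without any 1 of the 4 WT libraries (0.11 to 0.17). The Irs3 rise was also lost when scaled to the same total (0.74, adjusted p = 0.073), with quantile normalization (0.054) and with no filter on low values (0.093). Irs2 was also lost with no filter (0.10) and with the replicate block (0.052). The adipocyte markers moved in the same directions between the genotypes on HFD, as given above for Ghr, and their part in these results was not tested.

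Of 13 genes of growth hormone signalling, 5 were called higher and 4 lower in Ad-Yap/Taz-KO on HFD, beside 17.1% higher and 15.1% lower of all genes and with a median of 0.52 beside 0.09. Higher were the feedback inhibitors of cytokine signalling Cish, Socs1 and Socs2 and the phosphatases Ptpn1 and Ptpn6, and lower were Stat5b, the JAK2-binding adaptors Sh2b1 and Sh2b2, and Bcl6, a repressor. The 4 lower genes were all lost when scaled to the same total (Stat5b -0.28, Sh2b1 -0.22, Sh2b2 -0.31, Bcl6 -0.43), with quantile normalization (-0.51, -0.51, -0.57 and -0.64 in the same order) and with WT HFD as 1 sample (adjusted p = 0.060, 0.11, 0.058 and 0.12). All 4 were also lost without WT HFD replicate 2 (0.11 to 0.13), Sh2b1 and Bcl6 without WT HFD replicate 1 (0.075 and 0.096) and after omission of Ad-Yap/Taz-KO HFD replicate 2 (0.086 and 0.10). Of the higher genes, Socs1 (0.095), Cish (0.095) and Ptpn1 (0.081) were lost with WT HFD as 1 sample, and Socs2 and Ptpn6 were called under all 12 alternatives and without any single library. Leaving out Ad-Yap/Taz-KO HFD replicate 2 or WT HFD replicate 1 lost Socs1, Cish and Ptpn1 (0.063 to 0.28), WT HFD replicate 2 lost Cish and Ptpn1 (0.086 and 0.080), and Ad-Yap/Taz-KO HFD replicate 1 lost Socs1 (0.10). Socs1 was lost in 4 of 12 alternatives. These included no filter on low values (adjusted p = 0.073), quantile normalization (0.78, 0.11) and a fit of only the HFD groups (0.078). Cish was also lost with no filter (0.061). Ptpn6, a phosphatase found mostly in blood cells, read 30 and 8 in WT HFD and 523 and 537 in Ad-Yap/Taz-KO HFD (4.99 ± 0.48, adjusted p = 8.4e-06), and 71 and 61 in WT SD against 377 and 244 in Ad-Yap/Taz-KO SD (2.19 ± 0.48, adjusted p = 0.018). The SD difference was lost without either WT SD library (0.10 and 0.18) or Ad-Yap/Taz-KO SD replicate 1 (0.12). The macrophage sums given above for Igf1 were in the same order of groups, and their part was not tested. With HFD in WT 6 of the 13 were called lower and 0 higher (9.22% lower and 8.74% higher of all genes; median -0.62 beside -0.08): Cish, Socs2, Socs3, Stat5a, Ptpn6 and the transcription factor Cebpb. In the same comparison 12 of 14 macrophage markers (median -1.12), 5 of 9 endothelial markers (-0.79) and 5 of 10 fibroblast and progenitor markers (-0.78) were called lower, and their part was not tested. With WT HFD as 1 sample Cish and Ptpn6 were kept, whereas Socs2 (adjusted p = 0.060), Socs3 (0.097), Stat5a (0.085) and Cebpb (0.20) were lost. Of the 6, Cish alone was called without any single library; all others were lost without WT SD replicate 1 (0.078 to 0.26) and without WT HFD replicate 2 (0.054 to 0.19). Socs3, Stat5a and Cebpb were also lost without WT HFD replicate 1 (0.075 to 0.17), and Ptpn6 and Cebpb without WT SD replicate 2 (0.065 and 0.072). The fall of Ptpn6 in WT was also lost with no filter on low values (0.067) and in a fit of only the WT groups (0.063). Its genotype difference on SD was lost with no filter as well (0.12). Cish fell from 1979 and 1091 in WT SD to 236 and 242 in WT HFD (-2.62 ± 0.25, adjusted p = 9.8e-05), and in Ad-Yap/Taz-KO from 916 and 1098 to 400 and 482 (-1.19 ± 0.25, adjusted p = 0.041). This was the only one of the 29 genes called between the diets in Ad-Yap/Taz-KO, and it was lost in 7 of 12 alternatives and without either Ad-Yap/Taz-KO HFD library, either WT HFD library or Ad-Yap/Taz-KO SD replicate 2 (adjusted p 0.073 to 0.32).

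**Figure D5:**
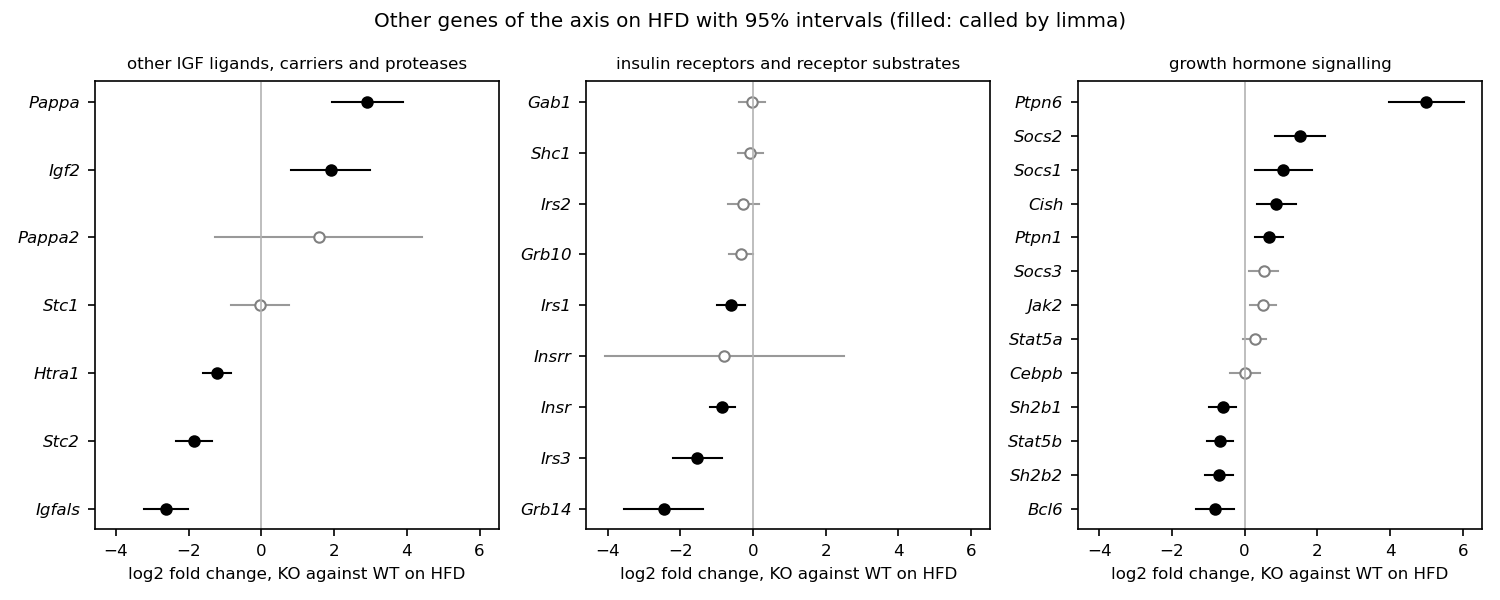
Log2 fold changes (x axis) with 95% intervals between Ad-Yap/Taz-KO (KO) and WT on HFD for the 29 tested genes of the 3 groups, with filled points for calls by limma. Ptpn6 (4.99) and Igfals (-2.62) mark the ends, and 4 of 9 insulin receptor and substrate genes are filled, all on the left.

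Profiles most like those of Ghr and Igf1 were sought among the 12092 genes whose mean reached 50, by the root mean square distance between centred log2 values over the 8 libraries. The nearest to Ghr were Dhtkd1 (0.093), Smoc1 (0.099), Ccdc125 (0.13), Cachd1 (0.14) and Glb1l2 (0.17), where the median distance of all genes was 0.88. Smoc1, for example, read 6197 and 6847 in WT HFD and 1716 and 1019 in Ad-Yap/Taz-KO HFD. The nearest to Igf1 were Spata5 (0.088), Galnt10 (0.091), Sat1 (0.092), Ccdc12 (0.093) and Impact (0.094), against a median of 0.45. The distances are descriptions over libraries that share preparation and scaling.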

How the data were processed

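Total RNA of isolated epididymal white adipocytes was sequenced single-end after ribosomal depletion. The authors trimmed reads with Reaper, aligned them to mm10 with STAR 2.5.2b, counted them per gene with featureCounts 1.5.1 and normalized with DESeq2 1.14.1 (versions per the submitters' processing notes). The deposited values are named a score here, since the authors scaled the counts by size factors and rounded the outcome, so no count model was run. Genes whose mean over the 8 libraries reached 5 (18800 of 30387) were tested with limma 3.58.1 in R 4.3.3 (eBayes with trend) on log2(value + 1), a pseudocount of 1, which understates changes of low genes. One fit held all 4 group means, and adjusted p-values come from it unless an alternative setting is named. An exact permutation test of 2 against 2 libraries cannot go below p = 0.333 (two-sided), so none is given. The value of 1 read per library was estimated from the whole numbers that occur. Floors cover counting error only. The fit was tested on simulated data.

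The members and lists were chosen with earlier results of these data known. Named were the 10 genes, the targeted genes, every called gene of the axis list (with values for the largest changes in each direction, up to 4 per comparison) and the 5 nearest profiles of Ghr and Igf1. Markers were those of macrophages, endothelium, fibroblasts and progenitors, mural cells, mesothelium, lymphocytes and adipocytes. Mural markers gave 2 higher and 2 lower of 7 in Ad-Yap/Taz-KO on HFD, mesothelial markers 1 and 1 of 6, and lymphocyte markers 2 and 0 of 5 tested. Alternatives were other pseudocounts (0.1, 8), filters, scalings, fits and the replicate block, each library left out, the WT HFD libraries as 1 sample and, added after seeing the data, a crossed pairing. Exon lengths came from GENCODE vM21. Python 3.11.15, pandas 2.3.3 and matplotlib 3.10.9 were used.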

Additional observations from a re-analysis of the deposited data

Results flagged for a closer look

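The genotype difference changed with diet, by limma's interaction term over all genes, for 4 of the 10 genes and for 7 other genes of the axis. Among the former the interaction was 1.11 for Igf1r, -1.64 for Ghr, -1.44 for Igfbp4 and 1.78 for Igfbp6 on the log2 scale. Among the latter it was 2.99 for Igf2, -2.01 for Igfals, 3.35 for Pappa, -0.77 for Insr, 1.73 for Socs2, 1.43 for Cish and 2.80 for Ptpn6. Over all genes 17.4% had a called interaction. It was called higher for 13 of 14 macrophage, 8 of 9 endothelial and 8 of 10 fibroblast and progenitor markers and lower for 9 of 11 adipocyte markers, and their part in these results was not tested. With the WT HFD libraries as 1 sample, 0 of the 10 genes kept it, with adjusted p of 0.051 for Igfbp4, 0.068 for Ghr, 0.10 for Igf1r and 0.13 for Igfbp6. Of the other 7 genes, Igf2 (0.063), Igfals (0.053), Insr (0.13), Socs2 (0.086) and Cish (0.082) lost it under that setting, and Pappa and Ptpn6 kept it. Scaled to the same total, the interaction of Insr was -0.34 (adjusted p = 0.26). Without single libraries Pappa kept its call throughout, Igfals lost it without WT HFD replicate 2 (0.056), and the others lost it without between 4 and 6 of the 8 libraries in turn.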

How the results depend on the processing

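The genotype calls of Ghr and Igfbp6 on HFD passed under every alternative and without any single library, and Igfbp4 under every one but quantile normalization. When the WT HFD libraries counted as 1 sample, the calls fell from 6 to 3 of the 10 genes for the genotypes on HFD, from 5 to 1 for the diets in WT, from 2 to 0 for the diets in Ad-Yap/Taz-KO and from 4 to 0 for the interaction, while those over all genes fell from 6053 to 3445, 3377 to 539, 202 to 28 and 3274 to 517. Leaving out 1 library at a time gave 3 to 6, 1 to 5, 0 to 4 and 0 to 5 calls in these 4 comparisons, and 0 to 1 for the genotypes on SD. Without WT HFD replicate 1 the genotypes on HFD gave 3 and the diets in WT 1, and without WT SD replicate 1 the interaction gave 0. With no filter on low values, where many more genes were tested, the calls were 5 for the genotypes on HFD, where 5006 of all genes were called, and 0 for the genotypes on SD, 1 for the diets in WT, 0 for the diets in Ad-Yap/Taz-KO and 1 for the interaction, where 438, 1701, 3 and 721 of all genes were called. The losses with no filter were those of Igf1r, Igfbp4, Igfbp5 and Igfbp6 between the diets in WT (adjusted p 0.061 to 0.14), Ghr (0.20) and Igfbp5 (0.16) between the diets in Ad-Yap/Taz-KO, the interactions of Igf1r (0.089), Ghr (0.069) and Igfbp6 (0.14), and the genotype calls of Igf1r on HFD and Igfbp5 on SD. The diet call of Igfbp6 in WT was also lost with a pseudocount of 0.1 (0.057), quantile normalization (0.089) and the replicate block (0.051). A fit of only the groups compared gave 0 on SD, with 461 of all genes called, and 0 for the diets in Ad-Yap/Taz-KO, where limma called 0 of all genes and 2059 had an unadjusted p under 0.05, and could not be made for the interaction. The diets in WT gave 3 calls scaled to the same total and 2 after quantile normalization. The diets in Ad-Yap/Taz-KO gave 1 call with a pseudocount of 0.1 and 3 with 8, with upper-quartile scaling and with the same total. Except where said, the cause was not tested.

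Scaling to the same total shifted the median log2 fold change of all genes by 0.37 for the genotypes on HFD, -0.40 for the diets in WT and 0.42 for the interaction, and quantile normalization by -0.19, 0.11 and -0.15. Directions turned for values that were not called, of which Igfbp5 between the genotypes on HFD had an adjusted p of 0.038 under the fold limit: with the same total, Igf2r (-0.029), Ghr (-0.11) and Igfbp3 (-0.24) between the diets in WT, and the interaction of Igf1 (0.16); with quantile normalization, Ghr between the diets in WT (-0.042), Igfbp5 (0.018) and Igfbp2 (-0.67) between the genotypes on HFD, and the interactions of Igf1 (0.11) and Igfbp2 (-0.037); and with the WT HFD libraries as 1 sample, Igfbp2 on HFD (-0.27). Without single libraries, Igfbp2 ran from -1.40 to 2.06 between the genotypes on HFD, -1.5 to 0.085 on SD, -2.38 to 1.08 between the diets in Ad-Yap/Taz-KO and -0.70 to 2.76 for the interaction. Igfbp3 ran from -0.086 to 0.42 between the diets in WT, -0.24 to 0.63 in Ad-Yap/Taz-KO and -0.41 to 0.46 for the interaction. Igfbp6 ran from -0.50 to 0.90 between the genotypes on SD and -0.15 to 1.25 between the diets in Ad-Yap/Taz-KO, and Igfbp7 from -0.10 to 0.24 between the genotypes on SD.

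The labels number the libraries without saying that a number pairs them, and deviations of same-numbered libraries correlated at -0.3 to 0.108 between groups. The replicate block gave 6, 1, 3, 1 and 3 calls for the genotypes on HFD and SD, the diets in WT, the diets in Ad-Yap/Taz-KO, and the interaction. A crossed pairing as the replicate block gave 6, 1, 5, 4 and 5. With 2 libraries a group, genes with few reads such as Igfbp2 are limited by depth.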
